A study of Mus musculus with 30 samples.

Results

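Oxidative phosphorylation is carried out by 5 protein complexes of the mitochondrial inner membrane. Complexes I (NADH dehydrogenase) and II (succinate dehydrogenase) take electrons from NADH and succinate. Complex III (the cytochrome bc1 complex) passes them to cytochrome c, complex IV (cytochrome c oxidase) passes them to oxygen, and complex V (ATP synthase) uses the resulting proton gradient to make ATP. The genes described here were chosen by symbol: those starting with Nduf, Uqcr, Cox4 to Cox8 or Atp5, and Sdha to Sdhd. The rule found 89 of the 19938 measured genes, of which 34 encode subunits of complex I, 4 of complex II, 8 of complex III, 19 of complex IV and 17 of complex V, and 7 (Ndufaf1 to Ndufaf7) encode proteins that help to assemble complex I. Ndufa4 and Ndufa4l2 carry a complex I name but belong with complex IV, and they are counted there together with Cox7a2l, which helps complexes III and IV to associate. Most complex IV subunits have 1 form in all tissues, but several have a second form restricted to certain tissues: Cox8b, Cox7a1 and Cox6a2 are the forms of heart and skeletal muscle, and the former pair are also found in brown fat. These forms are described apart from the others.

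Affymetrix Mouse Gene arrays gave the RNA levels in total RNA of spleen and of lymph nodes from 15 mice, all of FVB/N background and 5 to 12 months old. There were 3 FVB/N controls, 6 asymptomatic Tg26 mice and 6 Tg26 mice with lymphoma, and each mouse gave 1 spleen and 1 node array, 30 in all. Tg26 mice carry a non-infectious HIV-1 provirus (pNL4-3 without a stretch of gag and pol) as a transgene under its own viral promoter, and they were heterozygous. The colony that develops lymphoma was bred from heterozygotes with skin lesions, per the labels. FVB/N mice lack the transgene, and the labels name no treatment for any group. The p-values measure the spread between mice, which is estimated over spleens and nodes together except in fits on 1 tissue. The labels name 2 batches: mice 1 to 3 of each state are batch A, and mice 4 to 6 of both Tg26 states are batch B, which holds no FVB/N mouse. The spleen array of lymphoma mouse 4 has a disease status code used otherwise for FVB/N mice, while its title and description call it lymphoma; it was kept as lymphoma. All values are log2 expression levels, and differences are log2 differences. Levels of different genes are read from different probes and are not compared. In whole tissue, fewer cells of a type and less RNA per cell cannot be told apart.

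The tissues differed in their cells. The mean level of 17 proliferation genes was 9.15 to 10.35 in lymphoma spleens and 9.67 to 10.34 in lymphoma nodes, against 7.68 to 8.35 in asymptomatic spleens and 7.72 to 8.34 in asymptomatic nodes. Of the proliferation genes 16 rose with lymphoma in spleen and 17 in node. Of 13 T cell markers, 12 fell with lymphoma in each tissue (limma, adjusted p under 0.05). Among B cell markers, 4 of 7 rose and 1 fell in nodes, and 1 of 7 fell in spleens. Some nodes were rich in fat genes: in the nodes of asymptomatic mice 2, 3, 4 and 5 the level of Ucp1, the uncoupling protein of brown fat, was 9.64, 11.76, 12.08 and 11.82, and in the node of FVB/N mouse 2 it was 8.89, against 4.91 to 6.84 on every other array. These 5 nodes exceeded the median array by more than 1 in the mean of the fat and muscle markers, and no node with lymphoma did. With lymphoma all 10 white fat markers and 4 of 7 brown fat markers fell in node, and 1 brown fat marker fell in spleen. Other nodes were rich in genes of neighbouring glands: the mean over 14 salivary gland markers reached 11.59 (FVB/N mouse 2), 9.66 (FVB/N mouse 3), 8.57 (asymptomatic mouse 2), 9.91 (asymptomatic mouse 3) and 7.50 (lymphoma mouse 5), where the remaining nodes lay at 5.36 to 5.68. The mean over 13 exocrine pancreas markers reached 12.02 (asymptomatic mouse 5) and 13.32 (asymptomatic mouse 6), where the remaining nodes lay at 5.70 to 6.20. On a pair of asymptomatic spleen arrays the pancreas mean lay at 7.51 (mouse 4) and 8.59 (mouse 5). The node counts of lymphoma against asymptomatic mice are given below also without the fat-rich nodes and without the gland-rich arrays; with both kinds left out, 1 FVB/N and 1 asymptomatic node would remain.

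In spleen, the mean of the 34 complex I subunits was 8.83 ± 0.01 (SD, n = 3) in FVB/N, 8.94 ± 0.05 (n = 6) in asymptomatic and 9.17 ± 0.29 (n = 6) in lymphoma mice. The mean of complex II was 9.30 ± 0.09, 9.55 ± 0.18 and 9.76 ± 0.08 in the same groups. Complex III followed with 9.24 ± 0.06, 9.28 ± 0.13 and 9.61 ± 0.23, and complex V with 10.08 ± 0.02, 10.19 ± 0.14 and 10.48 ± 0.20. The 11 general forms of complex IV averaged 9.83 ± 0.04, 9.92 ± 0.15 and 10.34 ± 0.20. All 5 complexes thus had their highest spleen mean with lymphoma, with SDs of 0.20 or more among lymphoma spleens except in complex II. In node the highest mean lay in the asymptomatic group for every complex: for complex I it was 9.17 ± 0.28 in FVB/N, 9.38 ± 0.56 in asymptomatic and 9.12 ± 0.12 in lymphoma mice, and for complex II 9.67 ± 0.26, 10.23 ± 0.71 and 9.71 ± 0.27. The asymptomatic node group spread most, from 8.62 in mouse 6 to 10.01 in mouse 3 for complex I.

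**Figure D1:**
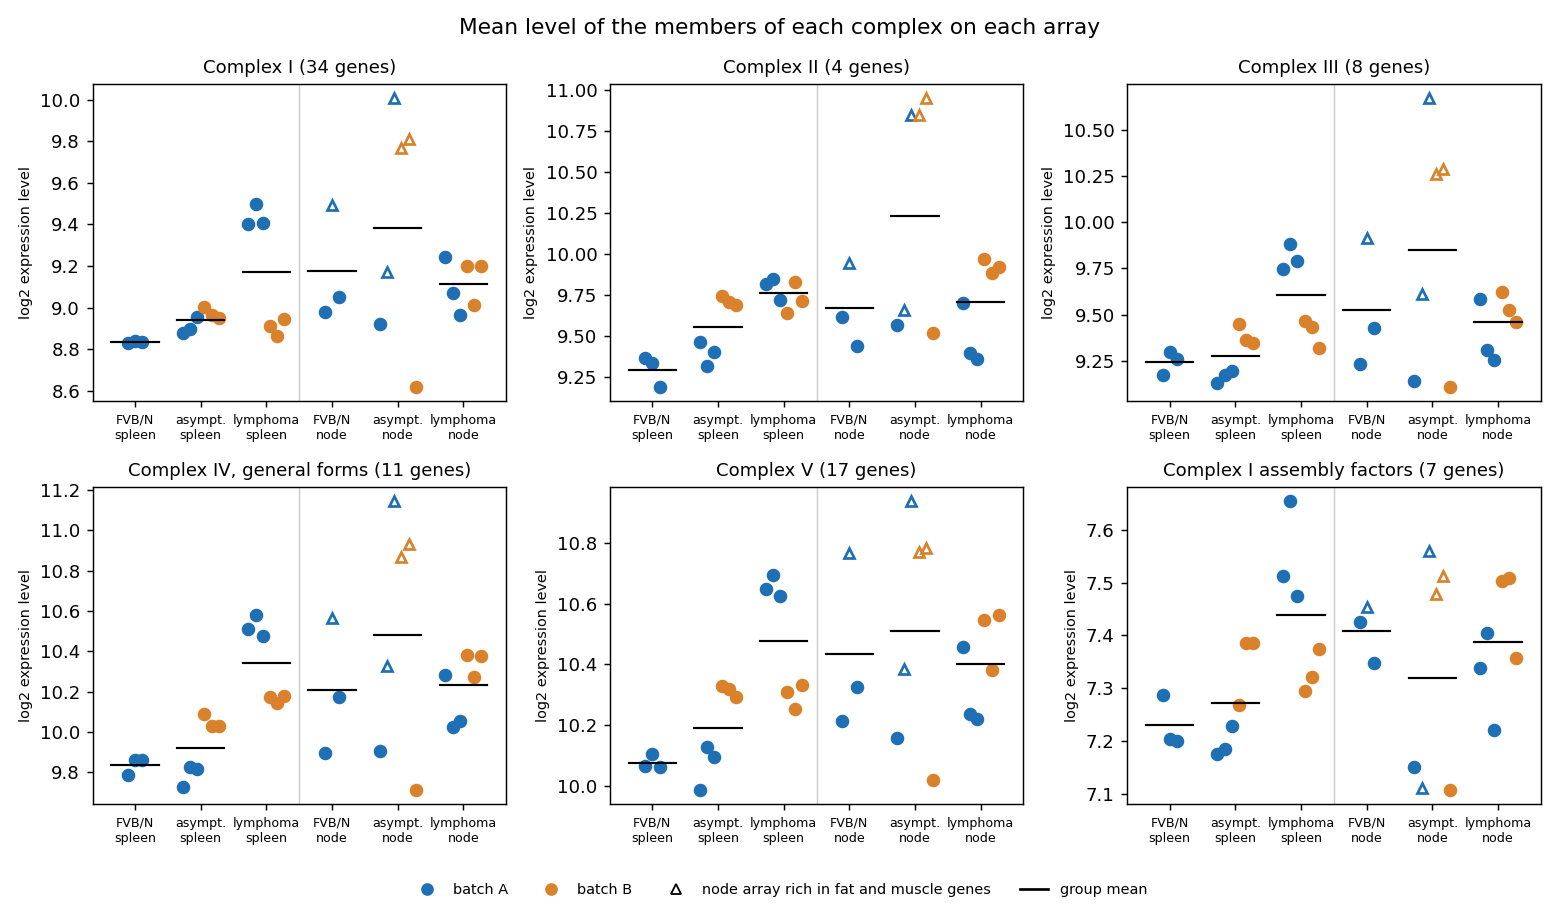
Mean log2 level of the members of each complex on each of the 30 arrays (vertical axis), by tissue and state (horizontal axis); each point is 1 array, blue for batch A and orange for batch B, open triangles are the 5 nodes rich in fat and muscle genes, and the black line is the group mean. The 3 batch A lymphoma spleens stand above the other spleens in complexes I, III, IV and V, and the highest nodes in complexes I to V are nodes rich in fat and muscle genes.

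The comparison of lymphoma with asymptomatic Tg26 mice asks which genes go with the tumour. In spleen the values were not alike in the 2 batches. In batch A, the mean over all 89 members was 9.41, 9.50 and 9.42 in the 3 lymphoma spleens against 8.89, 8.93 and 8.95 in the 3 asymptomatic spleens, and the groups did not overlap. Every lymphoma spleen lay above every asymptomatic spleen for 72 of 89 members (80.9%), where 17.6% of all genes did so. For 2 of 89, Cox4i2 and Cox7b2, every lymphoma spleen lay below, where 23.6% of all genes did. In batch B, the mean was 9.08, 9.04 and 9.05 with lymphoma against 9.08, 9.03 and 9.05 without, so the groups overlapped. There 13 members were higher and 11 lower without overlap, shares of 14.6% and 12.4%, beside 13.1% and 14.7% of all genes.

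Within batch A, 22 members rose with lymphoma in spleen and 0 fell (limma within the batch, 3 mice against 3, adjusted p under 0.05 over all genes), where 7.5% of all genes rose and 6.39% fell. That fit held the batch's spleens and nodes together, so the spread among nodes is part of these p-values. Cox8b, for example, had an SE of 1.26 in either tissue. The median difference over the members was 0.46 and that over all genes was -0.05. The 22 were spread over the chain: 6 of 34 in complex I, 1 of 4 in complex II, 1 of 8 in complex III, 5 of 19 in complex IV, 6 of 17 in complex V and 3 of 7 assembly factors. Within batch B, 0 members passed in either direction, and 8.42% of all genes did; the members' median difference there was -0.04. Neither quantile normalization nor centring each array on its median changed the batch A pattern: 69 and 71 members were then higher without overlap, where 18.7% and 18% of all genes were.

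Complex I gave the largest single difference. Ndufb6, a membrane-arm subunit, read 8.30, 8.56 and 8.79 in asymptomatic spleens of batch A and 9.88, 10.26 and 10.20 in lymphoma spleens, a rise of 1.57 ± 0.48 (SE, adjusted p = 0.0392, limma). In batch B it read 8.36, 8.51 and 8.36 against 8.76, 8.55 and 8.70. The 6 lymphoma values of the pair of batches thus fell into separate ranges, while the asymptomatic values did not. Ndufa11, another membrane-arm subunit, rose by 1.03 in batch A, from 8.84 to 8.94 across mice up to 9.84 to 10.02, and read 9.30 to 9.41 against 9.27 or less in batch B. Ndufs6, which sits at the peripheral arm, rose by 1.01 in batch A.

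In complexes II and III 1 gene each passed within batch A. Sdhd, a membrane anchor of succinate dehydrogenase, read 8.91 to 9.15 in asymptomatic and 9.65 to 9.99 in lymphoma spleens of batch A, a rise of 0.83 ± 0.26 (SE, adjusted p = 0.0481, limma). Sdha, the flavoprotein that oxidises succinate, read 10.08 to 10.34 and 10.08 to 10.39 in the same spleens, with a difference of -0.02. Sdhb and Sdhc, the iron-sulfur subunit and the other anchor, differed by 0.41 and 0.39, and neither passed (adjusted p = 0.529 and 0.317, limma). Uqcrq, a small subunit of complex III, read 7.56, 7.60 and 7.61 in asymptomatic and 8.47, 8.62 and 8.64 in lymphoma spleens, a rise of 0.99. Uqcrfs1, the Rieske iron-sulfur protein, differed by 0.43 and did not pass (adjusted p = 0.445, limma). Over both batches Uqcrb, a quinone-binding protein, read 10.82 to 11.15 in asymptomatic and 10.99 to 11.44 in lymphoma spleens. Uqcrh, the hinge protein, read 10.45 to 11.14 and 10.74 to 11.30. Neither passed in the model over all arrays in either tissue. Ndufaf2, an assembly factor of complex I, read 6.53 to 6.81 in asymptomatic and 6.74 to 7.25 in lymphoma spleens, and rose by 0.46 within batch A (adjusted p = 0.00608, limma).

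In complex IV, Cox4i1, the general form of subunit 4, read 9.16, 9.37 and 9.31 in asymptomatic and 10.14, 10.43 and 10.26 in lymphoma spleens of batch A, a rise of 1.00 ± 0.29 (SE, adjusted p = 0.0297, limma). In batch B it read 10.14 to 10.49 against 10.15 to 10.34, and the groups overlapped. Ndufa4 read 7.02, 7.30 and 7.39 against 8.46, 8.93 and 8.53 in batch A, a rise of 1.40, and in batch B it read 9.21 to 9.27 against up to 9.65, with overlap. Ndufa4 thus read higher in asymptomatic spleens of batch B than in lymphoma spleens of batch A, a comparison across batches. Other members also differed by batch among asymptomatic spleens, in either direction. Cox7a2l read 9.14 to 9.27 in batch A and 10.84 to 11.02 in batch B, and Atp5d 11.99 to 12.30 and 10.71 to 10.88. Cox5a, Cox6a1 and Cox6b1 rose by 0.99, 0.94 and 0.73 in batch A. Of the 8 tissue-restricted forms, 0 passed in batch A, and their median difference was -0.03 where that of the 11 general forms was 0.73.

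In complex V, Atp5mpl, a small subunit of the membrane part, read 8.31, 8.66 and 8.57 in asymptomatic and 9.41, 10.15 and 10.09 in lymphoma spleens of batch A, a rise of 1.37 ± 0.32 (SE, adjusted p = 0.00929, limma). Atp5e, the epsilon subunit of the central stalk, rose by 1.17 in batch A and differed by -0.39 in batch B. Atp5o, part of the peripheral stalk, rose by 1.12 and differed by -0.09. Atp5b, the catalytic beta subunit, went against this: it read 11.64, 12.22 and 11.93 in asymptomatic and 11.76, 11.85 and 11.70 in lymphoma spleens of batch A, a difference of -0.16. Not all central subunits took part in the batch A rise.

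The difference between the batches was itself tested in the 24 Tg26 arrays, without surrogate variables. In spleen, 0 of 89 members passed after adjustment and the lowest adjusted p was 0.117 (limma), while 0.0351% of all genes passed. At an unadjusted p under 0.05, 22 members had the larger change in batch A and 0 in batch B, where 4.57% and 4.65% of all genes did. So 22 members passed in batch A and 0 in batch B, in fits with unlike numbers of arrays. No single member was shown to differ between the batches. Batch and mouse cannot be told apart here, since each mouse belongs to 1 batch. In the same spleens the proliferation genes read 9.88 to 10.35 in batch A and 9.15 to 9.96 in batch B with lymphoma, and erythroid markers 7.93 to 9.83 and 6.03 to 8.69; the part of either in the members' values was not tested.

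**Figure D2:**
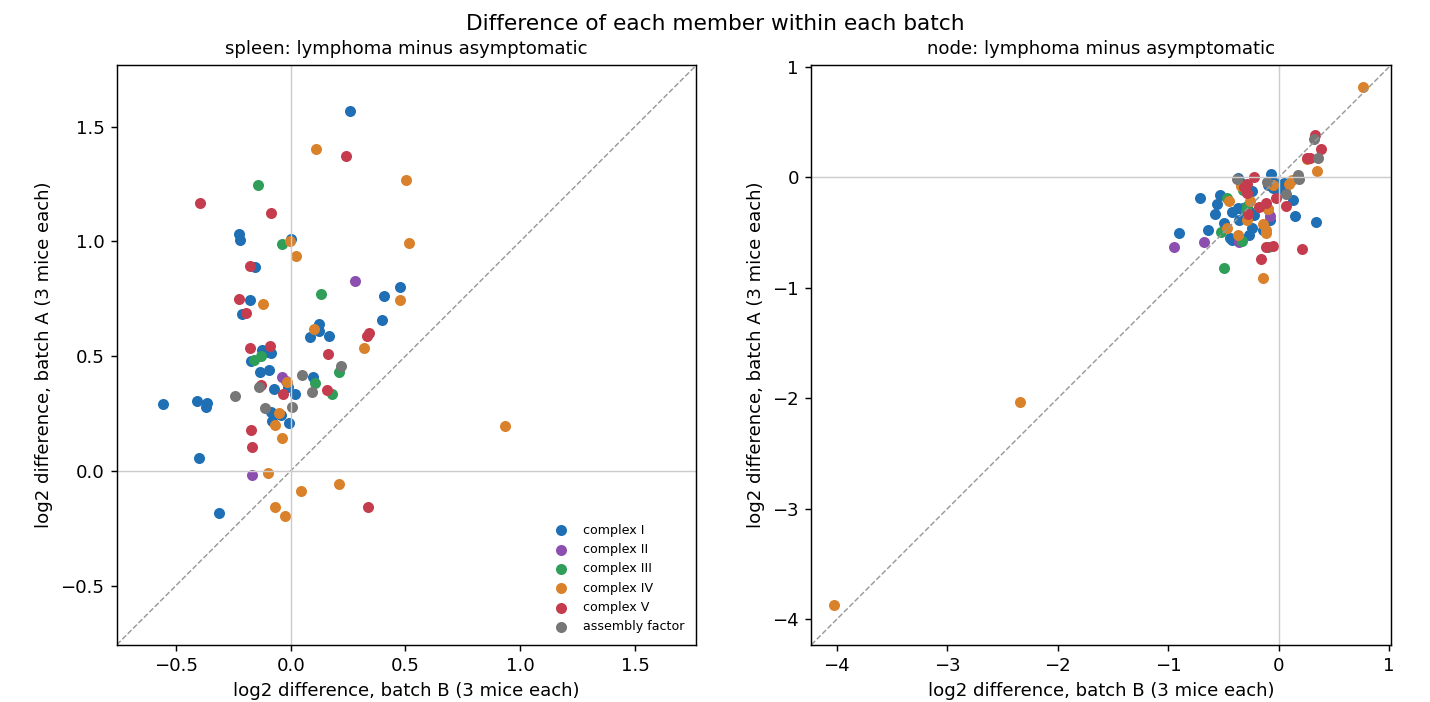
Log2 difference between lymphoma and asymptomatic mice for each of the 89 members, in batch B (horizontal axis) and batch A (vertical axis), 3 mice a group in each, for spleen (left) and node (right); colours give the complex and the dashed line marks equal differences. In spleen most members lie above 0 in batch A and around 0 in batch B, with medians of 0.46 and -0.04; in node both batches give medians below 0, and Cox8b and Cox7a1 lie far below the rest.

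The study's own kind of model, limma over all arrays with surrogate variables (estimated covariates for unlabelled variation), gave another view of the spleen. In it 1 member rose and 4 fell with lymphoma, where 8.58% of all genes rose and 7.25% fell. The measured difference was above 0 for 77 of the 89 members and for 8979 of 19938 genes. The median measured difference was 0.23 over the members and -0.02 over all genes, while the median fitted one was -0.03 over either. Cox6b2, a form of subunit 6b described from testis, rose by 0.53. Ndufs5, Ndufs7, Ndufv3 and Sdha fell, and 0 of these 5 passed without surrogate variables or with a batch term in their place. Without surrogate variables 3 members rose and 0 fell, beside 7.62% and 8.17% of all genes. Fitting spleen arrays alone, again with surrogate variables, 50 members rose and 2 fell, beside 14.8% and 18.2% of all genes. Without the arrays rich in salivary gland or pancreas genes 1 member rose and 2 fell, and of the 5 above Ndufs7 passed (-0.48, adjusted p = 0.0103, limma). The direction of the spleen calls thus changed with the covariates. Cox8b shows the size of the shift: it read 4.95 to 5.92 in asymptomatic and 5.16 to 5.78 in lymphoma spleens, a measured difference of -0.02, and had a fitted one of -1.60 (adjusted p = 0.0578, limma). The median difference of 10 white fat markers in spleen was -0.07 measured and -1.03 fitted, and 3 of them fell. The second surrogate variable had 59.6% of its variance between groups; its part in the spleen values was not tested.

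Of the 4 genes that fell in spleen in that model, Ndufs7, an iron-sulfur subunit near the quinone site of complex I, kept its direction under all 14 alternatives and passed in 7. It read 11.66 to 11.84 in asymptomatic and 11.33 to 11.85 in lymphoma spleens of batch A, and 10.07 to 10.35 against 9.77 to 9.93 in batch B, where the groups did not overlap. The fitted difference was -0.46 ± 0.11 (SE, adjusted p = 0.00424, limma), and the measured difference was -0.25. Sdha read 10.01 to 10.34 and 9.89 to 10.39 over both batches, so its groups overlapped, and its fitted difference of -0.51 (adjusted p = 0.00419, limma) stood beside a measured one of -0.09. Ndufv3, a small subunit beside the NADH-binding site, had a fitted difference of -0.35 and a measured one of -0.17. Ndufs5 had a fitted difference of -0.55 and a measured one of 0.58, and its sign turned under 10 of the 14 alternatives.

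In lymph node, 9 of 89 members fell with lymphoma and 2 rose in the model with surrogate variables, where 12.5% of all genes fell and 11.6% rose, so the share of members that fell was no larger than that of all genes. The largest falls were those of the muscle and fat forms Cox8b and Cox7a1. The direction of the count turned with the processing: with batch and the marker lists of neighbouring tissues in place of the surrogate variables 22 rose and 1 fell (7.05% and 6.43% of all genes), and after median centring 11 rose and 3 fell (13.2% and 11.1%). The median fitted difference was -0.12, the measured one -0.23, and those of all genes -0.02 and 0.07. By complex, 4 of 34 genes fell in complex I, 1 of 4 in complex II, 0 of 8 in complex III, 4 of 19 in complex IV and 0 of 17 in complex V, where 2 rose. Without the 5 nodes rich in fat and muscle genes, 1 member fell and 2 rose, and the median was 0.03; there 7.34% of all genes fell and 6.92% rose. Without the arrays rich in salivary gland or pancreas genes, which left 1 FVB/N, 2 asymptomatic and 5 lymphoma nodes, 6 members fell and 0 rose (10.7% and 8.68% of all genes), and Cox8b, Cox7a1, Cox7b and Sdha were among them. Of the 2 asymptomatic nodes left there, that of mouse 4 is rich in fat and muscle genes and that of mouse 1 is not. Cox8b read 11.49 and 6.09 in them, and Cox7a1 10.42 and 6.26. Of the 11 genes called with all nodes, 0 passed without the 5 nodes rich in fat and muscle genes, when 2 FVB/N, 2 asymptomatic and 6 lymphoma nodes remained. Within each batch, with all nodes, 4 members fell and 0 rose: Cox8b, Cox4i2 and Sdha in both, Cox7b in batch A and Ndufv3 in batch B. In batch A 8.47% of all genes fell and 8.18% rose, and in batch B 10.8% fell and 9.33% rose.

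Cox8b is the form of subunit 8 of heart, muscle and brown fat. Its level in the asymptomatic nodes of mice 1 to 6 was 6.09, 10.30, 12.55, 11.49, 11.30 and 6.13, and in the lymphoma nodes 5.91, 5.76, 5.67, 5.66, 5.59 and 5.58. The FVB/N nodes read 5.96, 10.46 and 5.58. High values stood in exactly the 5 nodes rich in fat and muscle genes, and all other nodes lay between 5.58 and 6.13, beside 4.95 to 5.93 in spleens. With lymphoma the fitted difference was -2.78 ± 0.63 (SE, adjusted p = 0.00191, limma) and the measured one -3.95. The call held in both batches, with measured differences of -3.87 in batch A and -4.03 in batch B. Without the 5 nodes the difference was -0.45 and did not pass (adjusted p = 0.193, limma).

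Cox7a1, the muscle and heart form of subunit 7a, followed the same nodes. It read 6.26, 8.07, 10.89, 10.42, 10.13 and 5.63 in asymptomatic mice 1 to 6, 5.68, 8.89 and 5.69 in FVB/N mice and 6.17 to 6.63 in lymphoma nodes. The fitted difference with lymphoma was -1.41 (adjusted p = 0.023, limma), and it turned to 0.26 without the 5 nodes. In spleen Cox7a1 read 5.60 to 5.97 in asymptomatic and 6.04 to 6.85 in lymphoma mice, so that no lymphoma spleen overlapped an asymptomatic one. Of the 89 members 4 (4.49%) were higher without overlap in this way. The share of all genes is not given beside that count, so it is not read as a result about the members. The measured difference of Cox7a1 was 0.61 and the fitted one -0.60, and neither passed. Of their general counterparts in node, Cox8a had a fitted difference of -0.04 and Cox7a2 one of 0.13, and neither passed. Cox7b, a general subunit, read 11.84 to 12.65 in asymptomatic and 11.59 to 11.71 in lymphoma nodes of batch A, and 10.42 to 11.60 against 10.72 to 10.91 in batch B, a fitted difference of -0.44, which was -0.15 without the 5 nodes.

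Cox6a2, the heart and muscle form of subunit 6a, did not follow the fat or muscle markers. Its level in the 5 nodes rich in fat and muscle genes was 7.22 to 7.56, beside 7.12 to 7.54 in the other FVB/N and asymptomatic nodes. It was high instead in single lymphoma mice: lymphoma mouse 4 read 10.25 in spleen and 9.62 in node, and mice 2 and 3 read 7.93 and 8.07 in spleen and 8.67 and 8.48 in node, while mice 1, 5 and 6 read 6.99 to 7.47 in spleen and 7.14 to 7.84 in node. The 3 mice with the highest spleen values were thus the 3 with the highest node values. Over the group the measured difference between lymphoma and asymptomatic mice was 0.56 in spleen and 0.79 in node, and the fitted one did not pass in either (adjusted p = 0.999 and 0.8, limma). Skeletal muscle markers, a list of 15 genes, averaged 6.40 to 6.62 in lymphoma spleens and 6.45 to 6.70 in lymphoma nodes, beside 6.43 to 6.63 in asymptomatic spleens. With lymphoma 1 of them rose and 1 fell in each tissue. They averaged 9.06, 8.92 and 7.86 in the nodes of FVB/N mouse 2 and asymptomatic mice 3 and 4. Cox6a2 read 7.44, 7.24 and 7.56 in these nodes. Cox6a1, its general counterpart, read 10.84 to 11.28 in lymphoma spleens.

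**Figure D3:**
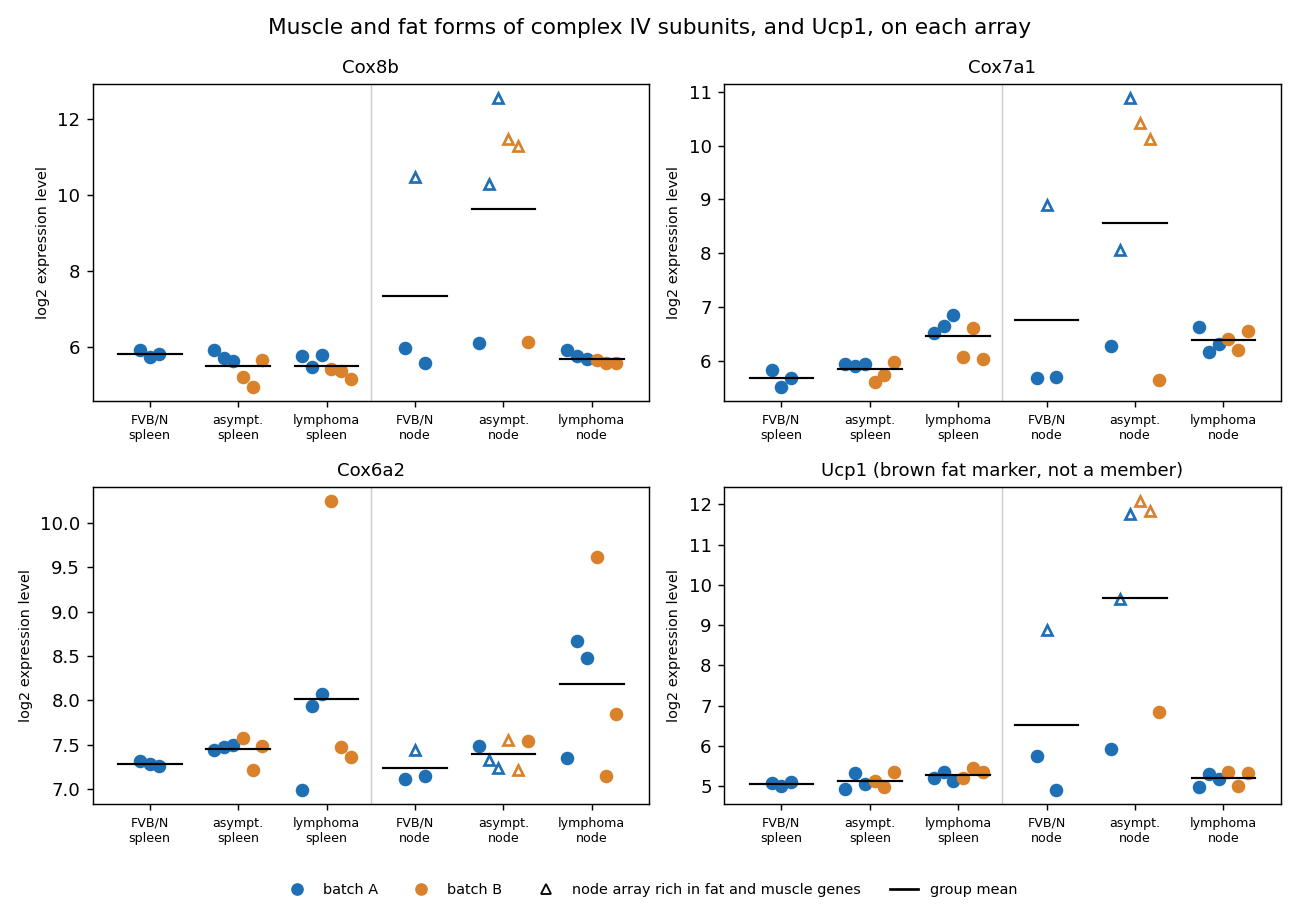
Log2 level (vertical axis) of Cox8b, Cox7a1 and Cox6a2 and of the brown fat marker Ucp1 on each of the 30 arrays by tissue and state (horizontal axis), with batch by colour, open triangles for the 5 nodes rich in fat and muscle genes and black lines for group means. Cox8b and Cox7a1 are high in the nodes where Ucp1 is high, and Cox6a2 is high in lymphoma mouse 4, at 10.25 in spleen and 9.62 in node.

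Of the other restricted forms, Cox4i2 was the one called in node. Cox4i2, the lung form of subunit 4, read 7.34 to 8.12 in asymptomatic and 7.04 to 7.61 in lymphoma nodes, and fell with a fitted difference of -0.58 ± 0.11 (SE, adjusted p = 0.000454, limma). It fell in both batches, with measured differences of -0.45 and -0.46, and the call held in 13 of 14 alternatives; the exception was the fit without the 5 nodes rich in fat and muscle genes, where the difference was -0.21 (adjusted p = 0.422, limma). Without the arrays rich in salivary gland or pancreas genes it was -0.47 and did not pass either. In spleen Cox4i2 read 7.23 to 7.68 and 7.10 to 7.49, and the fitted difference of -0.19 did not pass. Ndufa4l2, known as a gene induced by low oxygen, read 5.86 to 6.79 over all 30 arrays. Cox7b2 and Cox8c, described from testis, read 4.83 to 5.76 and 5.38 to 6.50.

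Promoters are shown for the muscle and fat forms Cox8b and Cox7a1, for their general counterparts Cox8a and Cox7a2, and for the general genes Cox6a1 and Sdha. Each is the 250 bases before the RefSeq transcription start in build GRCm38.p6, written 5′ to 3′ on the gene's strand. Cox8b lies at chr7:140900447-140900696 (minus strand), Cox7a1 at chr7:30183921-30184170 (plus), Cox8a at chr19:7217617-7217866 (minus), Cox7a2 at chr9:79759854-79760103 (minus), Cox6a1 at chr5:115348959-115349208 (minus) and Sdha at chr13:74350241-74350490 (minus). Capitals mark matches on either strand to the palindromic motif of NRF1 or to CCGGAAG, the core of ETS factors such as GABP; both are known regulators of nuclear genes for mitochondrial proteins.
Cox8b: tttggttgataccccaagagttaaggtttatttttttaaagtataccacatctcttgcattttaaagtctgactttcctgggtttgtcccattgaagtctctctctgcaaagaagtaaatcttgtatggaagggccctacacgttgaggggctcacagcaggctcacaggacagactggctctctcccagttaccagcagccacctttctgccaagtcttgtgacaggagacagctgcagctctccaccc
Cox7a1: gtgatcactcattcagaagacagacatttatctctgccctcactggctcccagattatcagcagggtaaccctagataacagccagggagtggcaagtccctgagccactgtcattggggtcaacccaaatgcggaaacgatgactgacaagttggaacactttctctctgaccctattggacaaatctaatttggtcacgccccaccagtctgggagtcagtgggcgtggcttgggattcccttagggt
Cox8a: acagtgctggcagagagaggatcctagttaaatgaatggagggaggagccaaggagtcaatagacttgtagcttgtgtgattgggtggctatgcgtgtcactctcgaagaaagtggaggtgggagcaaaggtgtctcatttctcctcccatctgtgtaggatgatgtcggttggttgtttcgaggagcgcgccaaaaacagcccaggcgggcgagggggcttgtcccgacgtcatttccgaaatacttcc
Cox7a2: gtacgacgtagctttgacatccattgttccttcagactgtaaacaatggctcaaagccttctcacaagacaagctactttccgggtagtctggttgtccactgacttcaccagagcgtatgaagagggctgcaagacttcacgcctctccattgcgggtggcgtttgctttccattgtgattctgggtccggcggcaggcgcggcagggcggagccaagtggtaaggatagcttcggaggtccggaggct
Cox6a1: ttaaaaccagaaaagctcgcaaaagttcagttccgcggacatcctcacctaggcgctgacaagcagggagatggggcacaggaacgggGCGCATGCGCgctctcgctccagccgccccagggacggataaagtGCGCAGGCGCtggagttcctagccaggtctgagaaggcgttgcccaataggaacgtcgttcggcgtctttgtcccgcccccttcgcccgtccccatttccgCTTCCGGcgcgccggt
Sdha: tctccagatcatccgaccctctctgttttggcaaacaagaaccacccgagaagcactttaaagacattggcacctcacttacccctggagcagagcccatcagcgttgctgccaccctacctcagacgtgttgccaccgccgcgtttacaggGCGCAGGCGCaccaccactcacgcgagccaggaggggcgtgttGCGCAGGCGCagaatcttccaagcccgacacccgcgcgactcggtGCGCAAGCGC
Sdha held 3 NRF1 matches and Cox6a1 held 2 NRF1 matches and 1 ETS match, while Cox8b and Cox7a1 held neither motif in this window. Cox8a and Cox7a2 held neither as well, so these motifs did not separate the restricted forms from their general counterparts. A promoter entry was at hand for 73 of the 89 members, and Cox6a2 had none. Among their 78 promoters 17.9% held the NRF1 motif and 16.7% the ETS motif, against 3.74% and 6.91% of all 32851 mouse promoters of that length. The motif AAGGTCA of oestrogen-related receptors was in 5.13% and 4.08%, and CCAAT in 42.3% and 33.8%. A match describes the letters and does not show binding.

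Among called members other than the restricted forms, Sdha had the largest fitted difference in node. It read 10.43, 10.48, 11.40, 11.43, 11.48 and 10.11 in asymptomatic nodes of mice 1 to 6, 10.34, 10.13, 9.97, 10.06, 9.85 and 10.27 in lymphoma nodes and 10.40, 10.54 and 10.38 in FVB/N nodes. Mice 3, 4 and 5 were the high ones, all 3 rich in fat and muscle genes. The highest lymphoma node read 10.34 and the lowest FVB/N node 10.38, and Sdha was not called between these groups. Between lymphoma and asymptomatic nodes the fitted difference was -0.72 ± 0.13 (SE, adjusted p = 0.000249, limma). It was -0.14 without the 5 nodes (adjusted p = 0.61, limma). Sdhb, the iron-sulfur subunit beside it, read 8.89 to 10.96 in asymptomatic and 8.98 to 9.74 in lymphoma nodes, with its 3 highest values in the same mice.

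In complex I of the node, Ndufs5, Ndufs7, Ndufv3 and Ndufa8 fell. Ndufv3 read 8.69, 8.70, 9.13, 9.44, 9.68 and 9.08 in asymptomatic and 8.58 to 8.82 in lymphoma nodes, a fitted difference of -0.35 ± 0.11 (SE, adjusted p = 0.0247, limma), which was -0.21 without the 5 nodes. Ndufs7 read 11.62 to 12.24 in asymptomatic and 10.98 to 11.55 in lymphoma nodes of batch A, and 9.82 to 10.83 against 9.91 to 10.14 in batch B. Ndufa8, a subunit with roles in assembly, read 8.66, 9.12, 10.58, 10.34, 9.60 and 8.39 in asymptomatic and 8.67 to 9.05 in lymphoma nodes; its difference of -0.37 turned to 0.26 without the 5 nodes. Thus Ndufa8 rested on those nodes, while Ndufs7 and Ndufv3 kept their sign without them and did not pass.

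Both members that rose in node belong to complex V, 2 of its 17 genes, while the median difference of that complex was -0.06 fitted and -0.17 measured. Atp5g1 and Atp5g3 encode the same subunit c of the proton-carrying ring, with different import sequences. Atp5g3 read 10.24, 10.38, 10.41, 10.36, 10.34 and 9.82 in asymptomatic and 10.86, 10.43, 10.52, 10.75, 10.34 and 10.60 in lymphoma nodes, a fitted rise of 0.48 ± 0.11 (SE, adjusted p = 0.00255, limma). Atp5g1 read 11.17 to 11.72 and 11.60 to 11.97, a fitted rise of 0.54 (adjusted p = 0.0153, limma). In the 4 asymptomatic nodes rich in fat and muscle genes Atp5g3 read 10.34 to 10.41, and the lymphoma nodes lay at or above 10.34. In lymphoma spleens Atp5g3 read 10.11 to 10.98 against 9.93 to 10.28 in asymptomatic ones. Without the 5 nodes the node differences were 0.30 for Atp5g3 and 0.11 for Atp5g1, and neither passed; without the gland-rich arrays they were 0.36 and 0.48, and again neither passed.

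**Figure D4:**
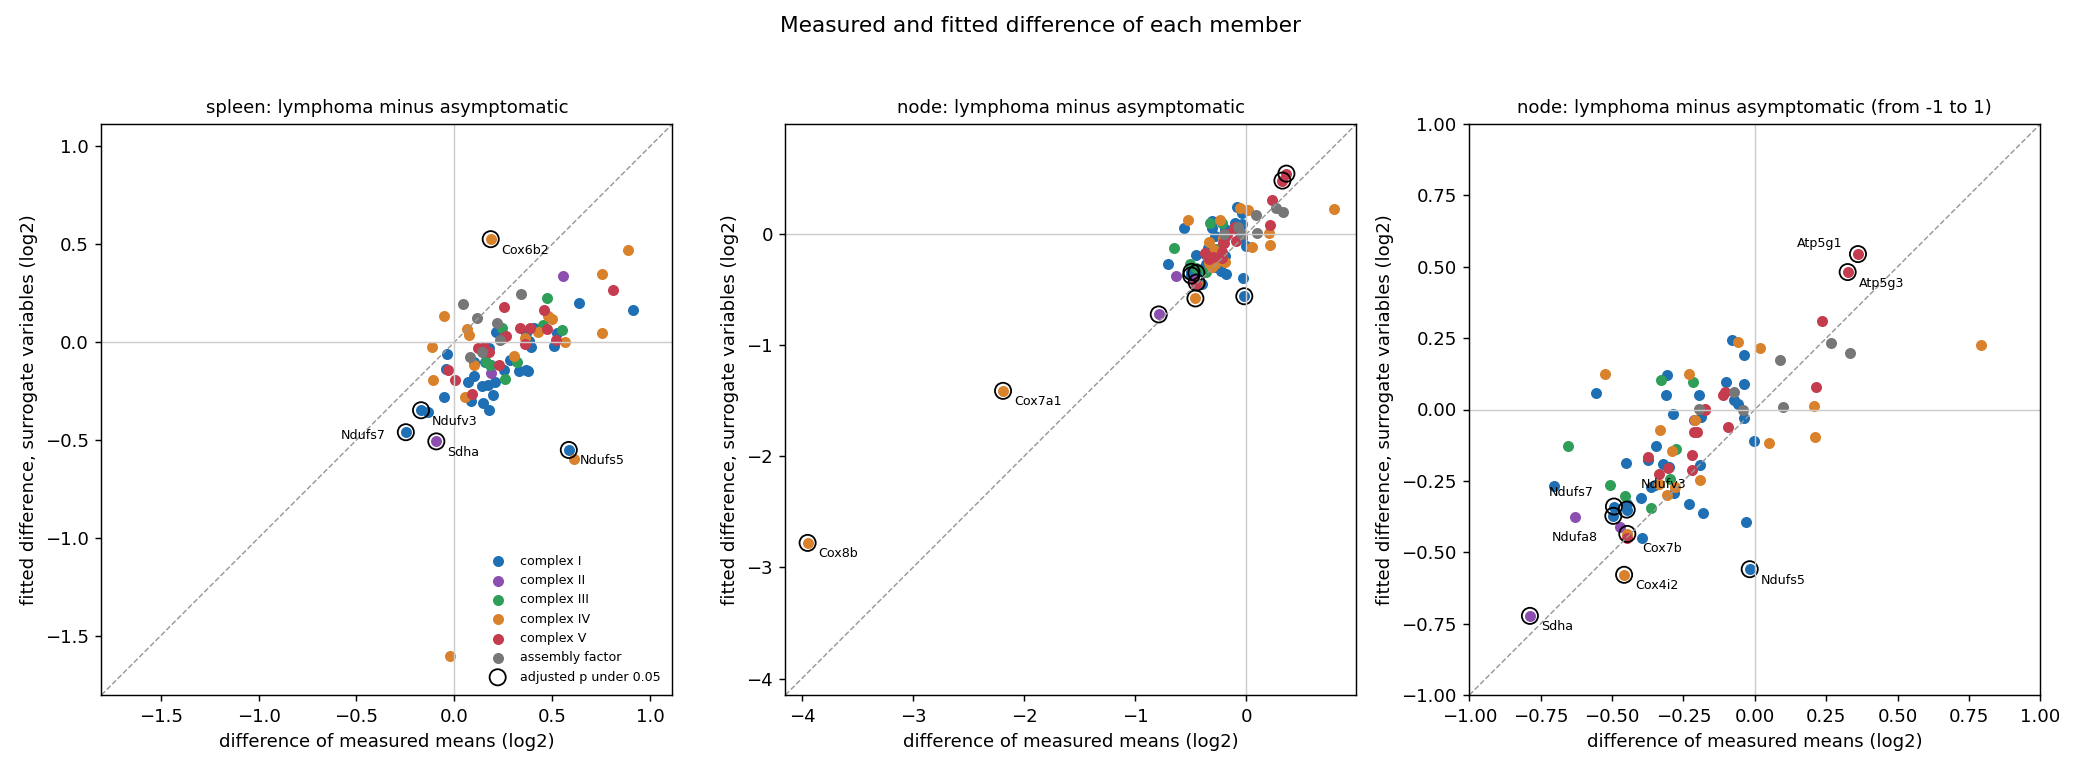
Difference between lymphoma and asymptomatic mice for each of the 89 members as the difference of measured group means (horizontal axis, log2) and as fitted with surrogate variables (vertical axis, log2), for spleen (left), node (middle) and node between -1 and 1 (right); colours give the complex, rings mark members with adjusted p under 0.05, and the dashed line marks equal values. In spleen most members lie to the right of 0 and below the line, with medians of 0.23 measured and -0.03 fitted, and in node Cox8b and Cox7a1 are lowest.

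No member's change with lymphoma was shown to differ between node and spleen. In the test of that difference 0 members passed, the lowest adjusted p was 0.237 (limma, Cox4i2), and 0.572% of all genes passed. Before adjustment, 2 members had a p under 0.05 upwards and 2 downwards, beside 5.66% and 6.08% of all genes. The median of node minus spleen over the members was -0.05 fitted and -0.51 measured, beside 0.005 and 0.09 over all genes. The measured value was above 0 for 8 of 89 members, and for 12554 of 19938 genes. Without surrogate variables 0 members passed. Between nodes and spleens with lymphoma 0 members passed as well, beside 0.0552% of all genes. Before adjustment that comparison had 1 member upwards and 1 downwards, beside 4.25% and 4.08%.

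The comparison of asymptomatic Tg26 with FVB/N mice addresses the transgene before tumours. Ndufs5, a small complex I subunit, is described because it had the smallest adjusted p among the members in spleen. It read 6.83, 6.73 and 6.91 in FVB/N spleens and 7.09, 6.86 and 6.87 in FVB/N nodes. In asymptomatic mice 1 to 6 it read 7.85, 7.96, 7.54, 8.84, 8.56 and 8.22 in spleen and 7.75, 7.83, 8.40, 9.74, 9.80 and 8.08 in node, and in lymphoma mice 7.92 to 9.49 and 7.50 to 9.74. All 24 Tg26 arrays thus lay above all 6 FVB/N arrays. The share of all genes that did so was not counted, so these values do not show whether that is unusual. Batch B, which holds no FVB/N mouse, held the highest asymptomatic values, 8.84 in spleen and 9.80 in node. In the model with surrogate variables Ndufs5 rose by 0.75 ± 0.15 in spleen (SE, adjusted p = 0.0221, limma) and by 0.81 ± 0.17 in node (adjusted p = 0.0125, limma). It was the sole member called in spleen, where 0.306% of all genes rose and 0.311% fell. Within batch A the measured differences were 0.96 and 1.05, and they did not pass (adjusted p = 0.211 and 0.136, limma). Without the gland-rich arrays the fitted differences were 0.79 and 0.62 and did not pass (adjusted p = 0.126 and 0.433, limma). Without the 5 nodes rich in fat and muscle genes neither difference passed.

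In node, 6 members rose in asymptomatic over FVB/N mice and 0 fell, where 1.34% of all genes rose and 0.592% fell: Cox8b, Cox7a1, Ndufa8, Ndufs5, Sdhd and Uqcrfs1. Cox8b and Cox7a1 had fitted differences of 2.93 and 2.24, and Ndufa8 one of 0.74 (adjusted p = 0.00513, limma). White fat markers rose with them, 9 of 10, with a median difference of 2.20. Without the 5 nodes 0 of the 6 passed, Ndufa8 stood at -0.02 and Cox8b at 0.51. Without surrogate variables 0 members passed in either tissue, and 0.115% of all genes in spleen and 0.0652% in node did.

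Against FVB/N mice, lymphoma mice had 1 member lower and 0 higher in spleen, where 5.25% of all genes fell and 7.1% rose. They had 5 higher and 0 lower in node, where 8.59% rose and 7.98% fell. The spleen gene was Sdha, with a fitted difference of -0.55 and a measured one of -0.11. The node genes were Ndufs8, Sdhd, Ndufb8, Cox5a and Ndufc2. Ndufs8, an iron-sulfur subunit of complex I, read 9.48, 10.50 and 9.86 in FVB/N and 9.87 to 10.70 in lymphoma nodes, with a fitted difference of 0.77 (adjusted p = 0.00757, limma) and a measured one of 0.23. Ndufc2 had a fitted difference of 0.55 and a measured one of -0.40. These 5 calls share their FVB/N arrays with the comparison above. Without the 5 nodes rich in fat and muscle genes 0 of them passed, and 1 member was higher and 2 were lower, beside 7.56% and 7.54% of all genes. Without the arrays rich in salivary gland or pancreas genes, with 1 FVB/N node left, 0 members passed against FVB/N mice in node in either Tg26 group. Without surrogate variables, 7 members were higher in spleen (6.11% of all genes) and 1 was higher and 1 lower in node (8.61% and 12%). Within batch A, 20 were higher and 1 lower in spleen (8.65% and 7.28%).

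Genes that work around the complexes are given from lists, in the surrogate-variable model for lymphoma against asymptomatic mice, where 8.58% of all genes rose and 7.25% fell in spleen and 11.6% rose and 12.5% fell in node. Of 6 carriers that move ATP, ADP, phosphate and other metabolites across the mitochondrial membranes, 2 rose in spleen and 4 in node and 0 fell; Vdac1, an outer membrane channel, rose by 0.49 and 0.61, and Slc25a5, an ADP/ATP carrier, by 0.45 in node. With a batch term in place of the surrogate variables 5 carriers rose in spleen and 1 in node, within batch A 2 and 0, and without the fat-rich nodes 2 and 3, with Vdac1 at 0.77 and Slc25a5 at 0.26 in node, the latter not passing. Of 14 electron carriers and feeders, 1 fell in spleen and 3 in node; Gpd2, the mitochondrial glycerol-3-phosphate dehydrogenase, had differences of -1.11 and -1.57, and the latter was -0.70 without the fat-rich nodes (adjusted p = 0.00868, limma). Of 15 enzymes of the citric acid cycle and pyruvate dehydrogenase, 1 fell in spleen and 2 in node, with Suclg2 in both at -0.39 and -0.27. Without the fat-rich nodes 3 of the cycle's genes rose in node and 0 fell. Of 23 assembly factors for complexes II to V, 1 fell in spleen and 6 in node, and of 13 for complex I, 1 and 2 fell. In node these were 1 and 0 without the fat-rich nodes, where 1 of the 23 rose. With a batch term in place of the surrogate variables, 2 of the 14 electron carriers and feeders rose in spleen and 0 fell. Of the 15 cycle enzymes 0 passed there. Of the assembly factors, 1 of the 23 rose and 1 fell, and 1 of the 13 rose and 0 fell. In node 6 of the 14, 6 of the 15, 4 of the 23 and 3 of the 13 fell, and 0, 0, 1 and 2 rose. The measured medians of these lists in spleen were 0.01, 0.17, -0.04 and 0.08. Of the 13 mitochondrially encoded chain genes, ND3 and COX2 were measured, and neither passed.

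Among 15 regulators of mitochondrial genes, Ppargc1b, a coactivator, fell in both tissues, with differences of -0.64 in spleen and -1.02 in node. Ppargc1a fell in spleen with a fitted difference of -1.10, beside a measured one of -0.10. Nrf1, and Gabpa and Gabpb1, which encode subunits of GABP, rose in node by 0.37, 0.48 and 0.38. Their differences in spleen were 0.14, 0.24 and 0.23 and did not pass. Without the fat-rich nodes Ppargc1b was at -0.50 and Nrf1 and Gabpa at 0.49 and 0.75 in node, and these passed; Gabpb1 was at 0.43 and did not. Of the remaining lists, 3 of 10 macrophage markers fell in node and 0 passed in spleen, and 1 of 6 erythroid and 1 of 14 salivary gland markers rose in node. Of 13 exocrine pancreas markers 0 passed in either tissue, while 6 fell in node with a batch term in place of the surrogate variables.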

How the data were processed

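The deposited table holds log2 values of 35557 probe sets on 30 arrays, which the authors had normalized with fRMA, per the labels' design text; array medians lay between 6.67 and 6.89; 1 probe set without values was left out. Probe sets with 1 symbol in the platform annotation (21789) were kept, 1621 with several symbols and 12146 without a listed symbol were not, and the probe set with the highest mean stood for a gene, which left 19938 genes. Cox7c and Ndufb4 have only probe sets with several symbols and were not used. Of 17 members with several probe sets, the sets gave opposite signs for lymphoma against asymptomatic mice in 0 genes in spleen and 1 (Ndufb11) in node.

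One limma fit (limma 3.58.1, R 4.3.3) over all arrays had 6 groups and 6 surrogate variables (written after the method the design text names; 5 iterations, number set by 20 permutations at p under 0.1), with Benjamini-Hochberg adjustment over all genes and calls at adjusted p under 0.05. A fit without surrogate variables gives the measured differences, and fits within a batch have none either. Each fit within a batch held all spleens and nodes of that batch, with FVB/N mice in batch A only. The number of arrays limits the precision. In simulated data for spleen, lymphoma against asymptomatic, 37.3% of genes changed by 0.5 and 92.5% of those changed by 1 were recovered. For node these were 26.9% and 80.6%. The simulation changed few genes, 67 of 19938 at each of these sizes, and its noise was independent between arrays. In the real spleens 1710 genes rose and 1446 fell, so these rates do not give the power in the data. The alternatives are in the closing section; the batch difference test, the scaled within-batch counts and the fit without gland-rich arrays were chosen after seeing the data. The spleen and node of 1 mouse are paired by design: their deviations from the group means correlated over 0.1 in 12 of 15 mice (-0.01 to 0.68). With mouse as a random block (correlation 0.12) no member count changed by over 1.5 times.

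Values on every array are given for the restricted forms and their counterparts, for the member with the smallest adjusted p in each complex, for members called alike in both tissues and for the leading calls of the other comparisons; further members were named after their values were seen. The members and lists were chosen with earlier results of these data known. Where the labels do not say otherwise, mice are taken as separate animals. Promoter sequences are RefSeq's, for build GRCm38.p6.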

Additional observations from a re-analysis of the deposited data

Results flagged for a closer look

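In 7 of 136 sets of values examined (the described members in each group of 6 arrays), 1 array stood apart from the other 5 by Dixon's criterion at the 95% level, which chance alone meets in about 1 of 20 sets. Cox6a2 read 10.25 in the spleen of lymphoma mouse 4, where the other lymphoma spleens read 6.99 to 8.07. Uqcrh, a hinge protein of complex III, read 11.30 in the spleen of lymphoma mouse 2, where the others read 10.74 to 10.89. In the spleen of asymptomatic mouse 5, Cox7b2 read 5.00 and Cox8c 5.38, below the 5.35 to 5.54 and 5.89 to 6.14 of the other asymptomatic spleens. Atp5g3 read 9.82 in the node of asymptomatic mouse 6, where the others read 10.24 to 10.41. Ndufv3 read 8.82 in the node of lymphoma mouse 6, where the others read 8.58 to 8.67. Ndufa8 read 8.67 in the node of lymphoma mouse 3, where the others read 8.95 to 9.05.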

How the results depend on the processing

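Counts of called members moved with the covariates, with scaling and with the arrays left out. The share of all genes called moved too. For lymphoma against asymptomatic mice in spleen, 7.62% rose and 8.17% fell without surrogate variables. On spleen arrays alone 14.8% rose and 18.2% fell. The counts here and in the fits leaving out 1 library stand without these shares. A moved count is thus not read as a change particular to the members. For lymphoma against asymptomatic mice in spleen (5 called), 3 were called without surrogate variables, 10 with 3 of them, 20 with batch and the marker lists of neighbouring tissues in their place, 22 within batch A, 0 within batch B, 52 on spleen arrays alone, 18 after median centring and 3 without the arrays rich in salivary gland or pancreas genes (chosen after seeing the data). In node (11 called) these were 4 with 3 surrogate variables, 23 with batch and lists (22 higher and 1 lower, against 2 and 9), 4 within batch A, 4 within batch B, 5 on node arrays alone, 3 without the nodes rich in fat and muscle genes, 6 without the gland-rich arrays and 6 after quantile normalization; centring gave 14, 11 higher and 3 lower. For asymptomatic against FVB/N mice in spleen (1 called), 0 were called without surrogate variables, with a batch term, 3 surrogate variables, or batch and lists, within batch A, with mouse number as a replicate block, without those nodes, without the gland-rich arrays, after quantile normalization or centring, with the mean over probe sets and with genes under a mean of 6 left out (15222 genes). In node (6 called), 0 were called without surrogate variables, with a batch term, batch and lists, within batch A, with the number block, on node arrays alone, without those nodes and without the gland-rich arrays, 2 with 3 surrogate variables and 3 after centring. For lymphoma against FVB/N mice in spleen (1 called), the counts were 7 without surrogate variables, 9 with a batch term, 9 with 3 surrogate variables, 25 with batch and lists, 21 within batch A, 11 with the number block, 33 on spleen arrays alone, 5 without those nodes, 5 after quantile normalization, 9 after centring, 2 with the mean over probe sets, 5 without low genes and 3 without the gland-rich arrays. In node (5 called) they were 2, 1 with a batch term, 1 with the number block, 3 on node arrays alone, 3 without those nodes, 1 after quantile normalization, 15 after centring, 13 without low genes and 0 without the gland-rich arrays. The node-spleen difference (0 called) had 1 with a batch term and 1 with the number block, and node against spleen with lymphoma (0 called) had 1 within batch A. The cause of these shifts was not tested.

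Mouse numbers across states share only a number: 3 of 12 correlated over 0.1 (-0.14 to 0.20). With number as a block, 7 members were called for lymphoma against asymptomatic mice in spleen and 15 in node; mouse as a random block, which is the pairing by animal, changed no member count.

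Leaving out 1 library gave 1 to 18 calls for lymphoma against asymptomatic mice in spleen (18 without lymphoma 5, 10 without lymphoma 6, 1 without lymphoma 1, 2 without asymptomatic 5 or 6, 3 without asymptomatic 3 or 4) and 6 to 13 in node (7 without asymptomatic 3, 6 without lymphoma 1). For asymptomatic against FVB/N mice it gave 0 to 1 in spleen (0 without FVB/N 2 or 3 or asymptomatic 1, 2, 3, 4 or 6) and 0 to 18 in node (17 without FVB/N 1, 3 without FVB/N 3, 18 without asymptomatic 1, 13 without 2, 0 without 4, 11 without 5). For lymphoma against FVB/N mice it gave 0 to 17 in spleen (17 without lymphoma 5, 4 without lymphoma 4, 3 without FVB/N 1 or lymphoma 6, 0 without lymphoma 1) and 3 to 35 in node (35 without lymphoma 5, 16 without FVB/N 1, 8 without lymphoma 3, 3 without FVB/N 3 or lymphoma 1). The node-spleen difference stayed at 0 to 0 and node against spleen at 0 to 1, with 1 without lymphoma 4. Sdha in node lost its call without asymptomatic 6 and without lymphoma 5, at -0.39 in each (adjusted p = 0.0753 and 0.0568, limma).

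Signs turned as follows. Ndufs5, lymphoma against asymptomatic in spleen, was 0.58 without surrogate variables, with a batch term and with the number block, 0.52 with 3 surrogate variables, 0.34 with batch and lists, 0.76 in batch A, 0.40 in batch B, 0.43 on spleen arrays alone, 0.028 without those nodes, 0.30 after centring and 0.37 without spleen lymphoma 5; over the fits leaving out 1 library it ranged from -0.65 to 0.37. In node it was 0.60 with batch and lists, 0.029 in batch A, 0.083 without those nodes, 0.33 without asymptomatic 6 and 0.25 without lymphoma 5, with a range of -0.57 to 0.33 over such fits. In spleen Ndufv3 was 0.058 in batch A and Cox6b2 -0.016 in batch B. In node, batch and lists gave Cox7a1 0.88, Cox7b 0.088, Ndufa8 0.42, Ndufv3 0.12 and Sdha 0.0185, and without those nodes Cox7a1 was 0.26 and Ndufa8 0.26. For asymptomatic against FVB/N in node, batch and lists gave Cox7a1 -0.25, Ndufa8 -0.024 and Sdhd -0.10, and Ndufa8 was -0.022 without those nodes. For lymphoma against FVB/N, Sdha in spleen was 0.015 in batch A, Ndufc2 in node -0.40 without surrogate variables and Ndufb8 in node -0.026 in batch A.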
